A study of Oryza sativa with 36 samples.

Results

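The WRKY transcription factors of rice were followed through feeding by the brown planthopper (BPH), a phloem-sucking insect, in leaf sheaths of 4 rice lines. The members were 46 loci given by RAP identifier, chosen as genes of the rice WRKY family, of 38978 genes in the deposited count table, and every member was found in it. A name was paired with its locus for 7 of them, WRKY45 (Os05g0322900), WRKY72 (Os11g0490900), WRKY53 (Os05g0343400), WRKY70 (Os05g0474800), WRKY62 (Os09g0417800), WRKY76 (Os09g0417600) and WRKY10 (Os01g0186000), and the other 39 are given by identifier. The lines were 3 near-isogenic lines (NILs) in the background of the indica variety 'Wushansimiao', B14 with BPH14, B15 with BPH15 and B1415 with both genes, and the recurrent parent RP, which carries neither gene and is labelled WT in the sample titles. Each line was sampled without infestation (0), at an early feeding stage that pooled plants infested for 3, 6 and 12 h, and at a late stage that pooled plants infested for 24, 48 and 72 h, giving 12 groups. A group had 3 biological replicates, each replicate held 15 seedlings and infested seedlings received 8 third-instar nymphs each. Times within a stage could not be separated, each NIL is 1 line, and the uninfested plants form the baseline of both feeding stages.

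WRKY proteins carry a DNA-binding domain named after its first 4 conserved residues and bind the W-box, a short promoter motif found in many plant defence genes, among them WRKY genes themselves. In rice they act in the salicylic acid and jasmonic acid pathways, some as activators and some as repressors of defence, and their transcripts often change within hours of attack. WRKY45 is an activator in the salicylic acid pathway, WRKY62 and WRKY76 act as repressors of defence against rice pathogens, and WRKY53 responds to elicitors and is a substrate of MAP kinases. WRKY70 takes part in the response of rice to chewing and sucking herbivores, and WRKY72 is known as a protein that interacts with BPH14.

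Library totals ranged from 10601967 to 18692187 counts with a median of 15884382, so that 3 counts, taken here as the detection floor of 1 library, equalled 0.15 to 0.279 CPM (counts scaled to a common library size with edgeR's TMM factors). CPM is not divided by gene length, so levels are compared between libraries and never between genes. The 6 loci listed as markers of leaf and leaf sheath were photosynthesis genes and a silicon transporter of the shoot. Every one was detected in 36 of 36 libraries. Their summed levels were 12080 to 19340 CPM at 0, 11350 to 19880 CPM at the early stage and 6357 to 12350 CPM at the late stage. The 4 loci listed for root and shoot meristem summed to 3.41 to 5.09 CPM at 0, 2.05 to 4.43 CPM at the early stage and 1.65 to 3.49 CPM at the late stage. A pair of root loci had no count in 27 and 14 libraries and the meristem locus in 4. These sums hide the meristem locus, which was called higher in RP_early (0.976, 1.13 and 0.769 CPM against 0, 0.0640 and 0 CPM in RP_0) and in B1415_late (2.15, 0.847 and 0.723 CPM against 0, 0 and 0.0669 CPM in B1415_0), while the remaining root locus was called lower in B14_late/B14_0 and B1415_late/B1415_0. In the late/0 comparisons 2 of the 6 leaf and sheath loci were called lower in B14, the silicon transporter among them, 3 in B15, 0 in B1415 and 1 in RP. The part of these marker changes in the values below was not tested. In whole sheaths fewer cells of a type cannot be told apart from less RNA per cell. Across all genes, 7 of 36 libraries lay nearest, by the Spearman correlation across genes, to a library of another group. Of these, B15_late replicate 3 was nearest to B1415_late replicate 2 (rho = 0.991), B1415_late replicate 3 to B15_late replicate 1 (rho = 0.990) and B14_0 replicate 3 to B14_early replicate 2 (rho = 0.971). Whether B15_late replicate 3 and B1415_late replicate 3 were exchanged cannot be told from the files, so the late values of B15 and B1415 hold under the labels as given. Each member call in a feeding comparison that changes when 1 of these 3 libraries is left out is given below with its value without it.

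At the late stage more members were higher than lower in every line, and 9 were higher in all 4 lines. Genes higher in all 4 lines were not counted over all genes, so the 9 are a description. A member was called where edgeR's quasi-likelihood test gave a Benjamini-Hochberg adjusted p under 0.05 over all genes tested and the absolute log2 fold change exceeded 1. In B14_late/B14_0, 17 of 44 members tested (38.6%) were called higher, where 12.6% of all genes were, and 2 were called lower, where 13.0% of all genes were. In B15_late/B15_0, 12 of 43 (27.9%) were higher against 13.4% of all genes, and 3 were lower against 13.9%. The count was 12 of 42 higher in B1415_late/B1415_0 (28.6%, all genes 6.73%) and 16 of 43 higher in RP_late/RP_0 (37.2%, all genes 9.70%). Neither B1415 nor RP had a member called lower, where 4.48% of all genes in B1415 and 7.62% in RP were lower, and 2 members in B1415 and 1 in RP were lower at an unadjusted p under 0.05, with 0 called by DESeq2 in both. The share of members called higher was above that of all genes in each of the 4 late comparisons, a difference that is described and was not tested. The median log2 fold change of the members tested was 0.59 in B14 (all genes 0.05), 0.12 in B15 (all genes 0.01), 0.41 in B1415 (all genes 0.02) and 0.67 in RP (all genes -0.01). Members passed the filter on low counts partly through the group where they were high, so the counts do not speak for all 46.

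At the early stage fewer members were called, and all that were called were higher. They numbered 6 of 43 tested in B14_early/B14_0 against 0.875% of all genes, 6 of 41 in B15_early/B15_0 against 1.95%, 9 of 42 in B1415_early/B1415_0 against 3.37%, and 8 of 40 in RP_early/RP_0 against 3.94%. The shares of all genes called lower were 0.151% in B14, 1.09% in B15, 0.973% in B1415 and 1.87% in RP. The 5 members called in all 4 lines were WRKY62, WRKY76, Os11g0117500, Os11g0117600 and Os12g0116700, while WRKY45, WRKY72, Os01g0821600 and Os12g0116600 were called in 2 lines each and Os06g0649000 in RP alone. No member was called lower by edgeR or by DESeq2 at this stage, while 2 members in B14, 2 in B15, 5 in B1415 and 2 in RP were lower at an unadjusted p under 0.05. The B14 count rested on single libraries. It was 8 without B14_0 replicate 3 and 0 without B14_early replicate 2, and without any 1 of the other 4 libraries only WRKY62 and WRKY76 kept their calls among the 6. Over both stages 24 of 46 members were called in at least 1 of the 8 feeding comparisons, 20 of them higher and 4 lower, and no member was called in both directions. Over all genes, calls in all 4 lines or in at least 1 of the 8 comparisons were not counted. The 5 and the 24 are therefore descriptions.

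**Figure D1:**
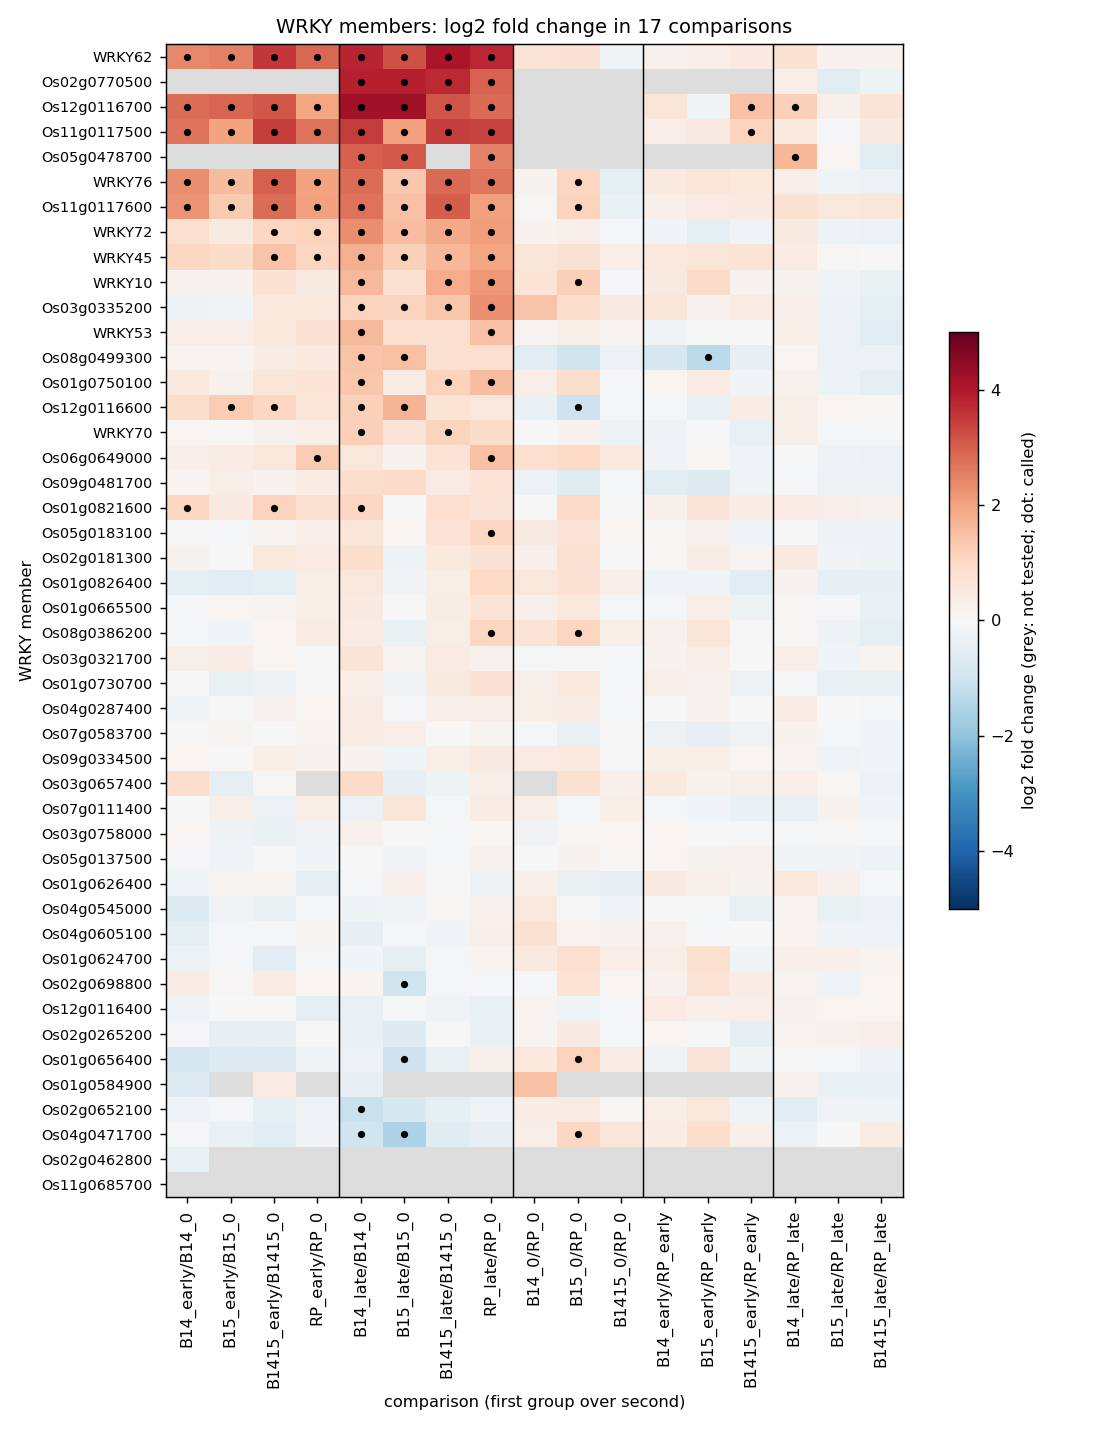
Log2 fold change (colour, first group over second) of each WRKY member (rows, ordered by the mean over the 4 late/0 comparisons) in the 8 feeding comparisons and the 9 comparisons of a NIL with RP (columns), with dots on called values and grey where a member was not tested. The rows at the top are red in all 4 late/0 columns, where 9 members were called higher, and dots are rare in the NIL/RP columns outside B15_0/RP_0, with 5 outside it and 7 in it. In B15_0/RP_0 17.9% of the members tested and 24.3% of all genes were called.

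WRKY62 and WRKY76, whose identifiers lie next to each other on chromosome 9, rose in all 8 feeding comparisons. WRKY62 had 4.17, 4.81 and 6.03 CPM in the 3 B14_0 libraries, 24.5, 30.4 and 24.0 CPM in B14_early and 75.8, 61.7 and 64.2 CPM in B14_late. In B15 it had 5.54, 4.73 and 4.57 CPM at 0, 27.4, 29.3 and 27.8 CPM early and 42.1, 52.8 and 40.3 CPM late. No library of one stage overlapped with another stage in either NIL. B1415 libraries held 2.01, 3.52 and 2.41 CPM at 0, 33.8, 27.6 and 28.4 CPM early and 39.5, 42.9 and 51.5 CPM late, and RP libraries held 3.96, 3.01 and 2.10 CPM at 0, 24.7, 22.0 and 19.2 CPM early and 43.9, 36.4 and 39.7 CPM late. The fitted late/0 increase was 13.9-fold in B14, 9.05-fold in B15, 17.2-fold in B1415 and 13.5-fold in RP, with log2 values of 3.18 to 4.10 (SE 0.15 to 0.20, adjusted p at most 7.62e-05). On the log2 scale most of that increase was in place at the early stage, where the log2 fold change was 2.41 to 3.54 (adjusted p at most 0.00429).

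WRKY76 showed the same direction with a higher starting level in B15. At 0 it had 17.2, 13.3 and 16.3 CPM in B15, against 7.04, 8.32 and 10.5 CPM in B14, 5.39, 5.46 and 5.02 CPM in B1415 and 8.59, 6.27 and 7.32 CPM in RP, so the 3 B15_0 libraries stood above the other 9 uninfested libraries. At the early stage the means were 43.1 ± 6.96 CPM in B14, 45.9 ± 7.67 CPM in B15, 41.5 ± 1.15 CPM in B1415 and 29.4 ± 2.48 CPM in RP (SD, n = 3 each). Late means were 57.9 ± 8.10 CPM in B14, 40.4 ± 5.32 CPM in B15, 37.5 ± 5.18 CPM in B1415 and 46.9 ± 3.32 CPM in RP. The late/0 log2 fold change was 1.36 ± 0.14 (SE) in B15 and 2.79 ± 0.21, 2.84 ± 0.15 and 2.69 ± 0.11 in B14, B1415 and RP, with adjusted p values of at most 0.000183. No late/early comparison called WRKY76 in any line.

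WRKY45, the activator of the salicylic acid pathway, rose in all 4 late comparisons and by a smaller factor than WRKY62. B14 libraries had 25.4, 28.5 and 41.5 CPM at 0, 67.2, 68.6 and 56.9 CPM early and 125, 96.9 and 93.8 CPM late. B15 libraries had 38.3, 30.6 and 37.0 CPM at 0, 58.0, 67.7 and 73.8 CPM early and 74.6, 86.3 and 84.3 CPM late. In both NILs every infested library lay above every uninfested one. B1415 libraries had 25.5, 29.3 and 22.5 CPM at 0, 65.2, 70.1 and 68.8 CPM early and 80.5, 83.2 and 76.4 CPM late, against 21.6, 19.6 and 20.0 CPM at 0, 45.6, 39.6 and 44.2 CPM early and 83.4, 79.3 and 76.9 CPM late in RP. The late/0 increase was 3.40-fold in B14 (adjusted p = 0.00133), 2.30-fold in B15 (adjusted p = 3.17e-06), 3.14-fold in B1415 (adjusted p = 4.93e-05) and 3.96-fold in RP (adjusted p = 4.57e-17). At the early stage WRKY45 was called in B1415 (2.69-fold) and RP (2.13-fold), and its values in B14 (2.04-fold, adjusted p = 0.0659) and B15 (1.88-fold, adjusted p = 4.06e-05) missed 1 of the 2 criteria. Without B14_0 replicate 3 the early value in B14 was 2.44-fold and was called (adjusted p = 1.67e-06).

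WRKY72, the BPH14-interacting member, was likewise higher in all 4 late comparisons, with unequal replicates in 2 lines. B14_late libraries had 16.5, 16.2 and 17.2 CPM against 3.998, 3.12 and 3.21 CPM in B14_0, a log2 fold change of 2.32 ± 0.18 (SE, adjusted p = 0.000233). RP_late libraries had 13.8, 11.04 and 12.1 CPM against 3.02, 2.88 and 3.00 CPM in RP_0, 2.08 ± 0.16 on the log2 scale (adjusted p = 1.48e-11). B14 and RP replicates were thus tight at both stages. B1415_late libraries had 5.56, 6.56 and 18.2 CPM against 3.44, 2.59 and 2.21 CPM in B1415_0, with the third late replicate about as high as the B14_late libraries. The log2 fold change in B1415 was 1.88 ± 0.43 (adjusted p = 0.00713) and 1.14 without that library. B15_late libraries had 12.8, 12.3 and 6.18 CPM against 4.31, 3.47 and 2.94 CPM in B15_0, with the third late replicate lowest, and the log2 fold change was 1.53 with it and 1.80 without it. At the early stage WRKY72 was called in RP (log2 1.14 ± 0.20, SE) and B1415 (log2 1.03 ± 0.21), where the early libraries had 8.48, 6.23 and 4.83 CPM in RP and 5.18, 6.65 and 4.79 CPM in B1415, all above the uninfested libraries of their line. These early calls were lost without RP_early replicate 1 in RP (log2 0.91) and without B1415_0 replicate 2, B1415_0 replicate 3 or B1415_early replicate 2 in B1415 (log2 0.98, 0.90 and 0.87). The early B1415 call was also lost with RP_0 in place of B1415_0 as the baseline.

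WRKY53, WRKY70 and WRKY10 were called at the late stage in some lines. WRKY53 had 199.7, 185 and 199 CPM in B14_late against 67.2, 73.5 and 55.4 CPM in B14_0 (3.07-fold, adjusted p = 0.000277), and 169, 143 and 162 CPM in RP_late against 59.4, 56.9 and 56.1 CPM in RP_0 (2.79-fold, adjusted p = 3.02e-15). It had 147, 129.7 and 105 CPM in B15_late against 75.1, 67.3 and 71.1 CPM in B15_0 (1.77-fold) and 77.7, 105 and 145 CPM in B1415_late against 63.6, 65.6 and 58.1 CPM in B1415_0 (1.76-fold), below the required fold in both, although the groups did not overlap. Without the third late replicate these values were 1.93-fold in B15 and 1.47-fold in B1415. WRKY70 rose in B14 (7.51, 7.81 and 10.8 CPM late against 4.62, 4.09 and 3.13 CPM at 0, log2 1.19 ± 0.25, adjusted p = 0.00801). Its call in B14 was lost without B14_late replicate 3 (log2 0.9995). In B1415 WRKY70 had 4.48, 5.35 and 11.1 CPM late against 3.73, 3.45 and 2.47 CPM at 0. Its log2 fold change of 1.12 (adjusted p = 0.0255) was 0.62 and not called without B1415_late replicate 3. The call in B1415 was also lost without any 1 of the 3 B1415_0 libraries, with RP_0 as the baseline and with the replicate number as a block. B15 and RP values of WRKY70 were 0.64 and 0.91, under the threshold of 1.

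WRKY10 was described because its values were seen to depend on single libraries. RP_late libraries had 6.37, 4.18 and 5.66 CPM against 1.14, 1.22 and 1.32 CPM in RP_0, a 4.49-fold rise (adjusted p = 1.85e-08). B14_late libraries had 5.56, 6.99 and 5.84 CPM against 1.07, 1.04 and 4.15 CPM in B14_0, so 1 uninfested library was high. The log2 fold change in B14 was 1.62 (adjusted p = 0.0495) and 2.54 without that library, and the call was lost without any one of the other 5. Its early/0 value in B14 was 0.19 with that library and 1.16, called, without it. B15_late libraries had 7.36, 5.10 and 2.21 CPM against 2.38, 2.87 and 3.26 CPM in B15_0, with the third late replicate below all 3 uninfested libraries. The log2 fold change in B15 was 0.76 (adjusted p = 0.0823) and 1.13 without that replicate, when it was called (adjusted p = 0.00121). In B1415_late WRKY10 had 1.73, 2.75 and 8.01 CPM against 1.26, 1.22 and 0.936 CPM in B1415_0, with log2 fold changes of 1.87 with and 0.99 without the third late library, the second not called, and without any 1 of the 3 B1415_0 libraries the call was lost too.

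**Figure D2:**
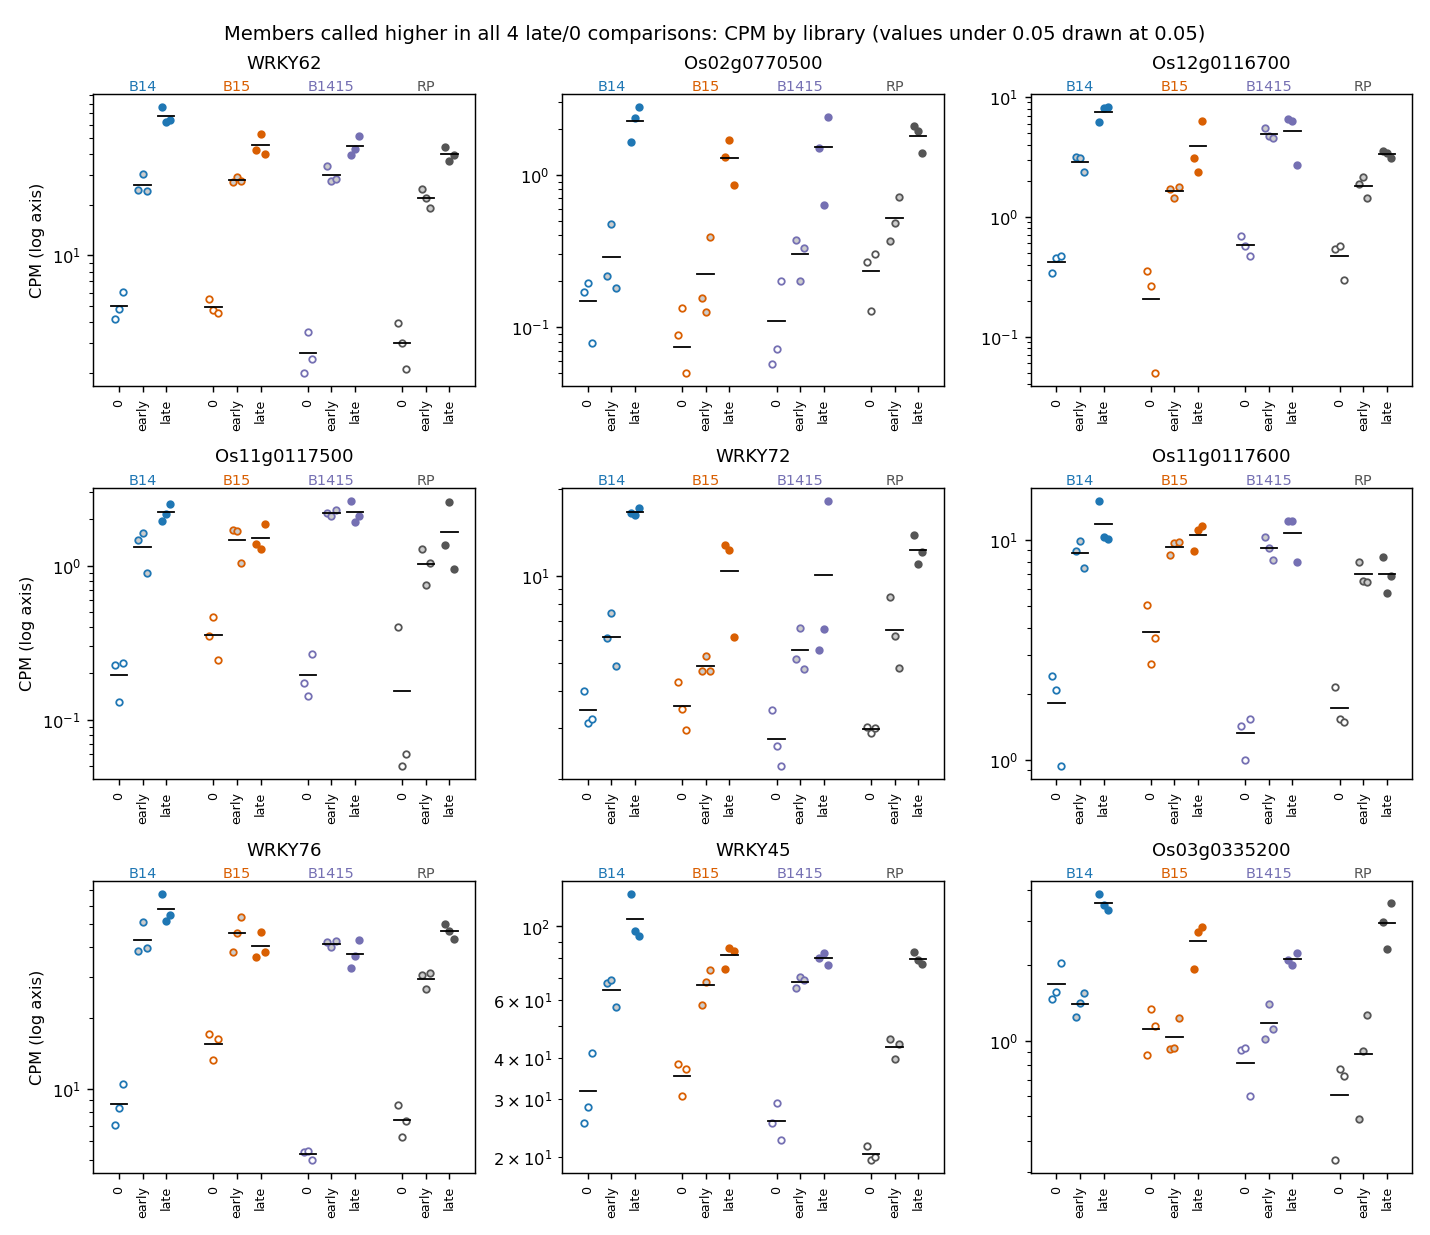
CPM (log axis) of the 9 members called higher in all 4 late/0 comparisons, by library, in B14, B15, B1415 and RP at stages 0, early and late, with bars at the group means of 3 libraries. WRKY62 and WRKY76 are already high at the early stage, and WRKY72 has 1 B1415_late library at 18.2 CPM beside 5.56 and 6.56 CPM. At the late stage Os02g0770500 and Os03g0335200 lie above every stage 0 library of their line in all 4 lines. At the early stage this holds for Os02g0770500 in RP alone and for Os03g0335200 in B1415 alone.

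The identifiers of 5 members lie close together near the starts of chromosomes 11 and 12, Os11g0117500 and Os11g0117600 on the first and Os12g0116400, Os12g0116600 and Os12g0116700 on the second. These 2 chromosome ends are known as a duplicated segment of the rice genome, so reads of near-identical copies may have been split or dropped in counting, and the values of the 5 are uncertain to that extent. Os11g0117500, Os11g0117600 and Os12g0116700 rose in all 8 feeding comparisons. Os11g0117600 had 8.89, 9.90 and 7.47 CPM in B14_early and 15.1, 10.3 and 10.2 CPM in B14_late, against 2.42, 2.08 and 0.939 CPM in B14_0. RP libraries had 7.99, 6.55 and 6.48 CPM early and 8.40, 5.75 and 6.91 CPM late, against 2.15, 1.54 and 1.5 CPM at 0, so the early and late libraries overlapped and both lay above the uninfested ones. Its late/0 log2 fold change was 2.73 in B14, 1.48 in B15, 3.02 in B1415 and 2.06 in RP (adjusted p at most 0.00118). Os12g0116700 had 6.24, 8.16 and 8.18 CPM in B14_late against 0.338, 0.455 and 0.470 CPM in B14_0, an 18.4-fold increase (adjusted p = 0.00016), and it had 3.51, 3.43 and 3.09 CPM in RP_late against 0.537, 0.576 and 0.3 CPM in RP_0, a 7.14-fold increase (adjusted p = 3.79e-08). B15_late libraries had 3.12, 2.38 and 6.29 CPM against 0.352, 0.267 and 0 CPM in B15_0, and B1415_late libraries 6.57, 6.25 and 2.71 CPM against 0.688, 0.575 and 0.468 CPM in B1415_0, with the third late replicate the highest in B15 and the lowest in B1415. Without these replicates the late/0 log2 fold change was 3.67 in B15 (with it 4.21) and 3.46 in B1415 (with it 3.15).

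Os11g0117500 was read at low depth, with 23, 28 and 13 counts in the RP_late libraries and 6, 0 and 1 counts in RP_0. Like Os12g0116700, it passed the filter on low counts through its infested libraries. Its late/0 log2 fold change was 3.499 in B14, 2.04 in B15, 3.47 in B1415 and 3.36 in RP (adjusted p at most 0.00113). Without RP_0 replicate 1 the RP value was 5.35 at the late stage and 4.76 at the early stage, where it was 2.73 with it. Os12g0116600, named because its neighbours rose, was called higher in 4 of 8 feeding comparisons, with late/0 log2 fold changes of 1.17 in B14 and 1.70 in B15 (called) and 0.70 in B1415 and 0.58 in RP (not called). With RP_0 as the baseline its early values were 0.26 in B15 and 0.97 in B1415 and its late values 0.82 in B14 and 0.69 in B15, none of them called. The early B1415 call was also lost without B1415_0 replicate 2, B1415_early replicate 2 or B1415_early replicate 3. Os12g0116400 was called in none of the 21 comparisons, with log2 fold changes of -0.44 to 0.02 over the 8 feeding comparisons.

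**Figure D3:**
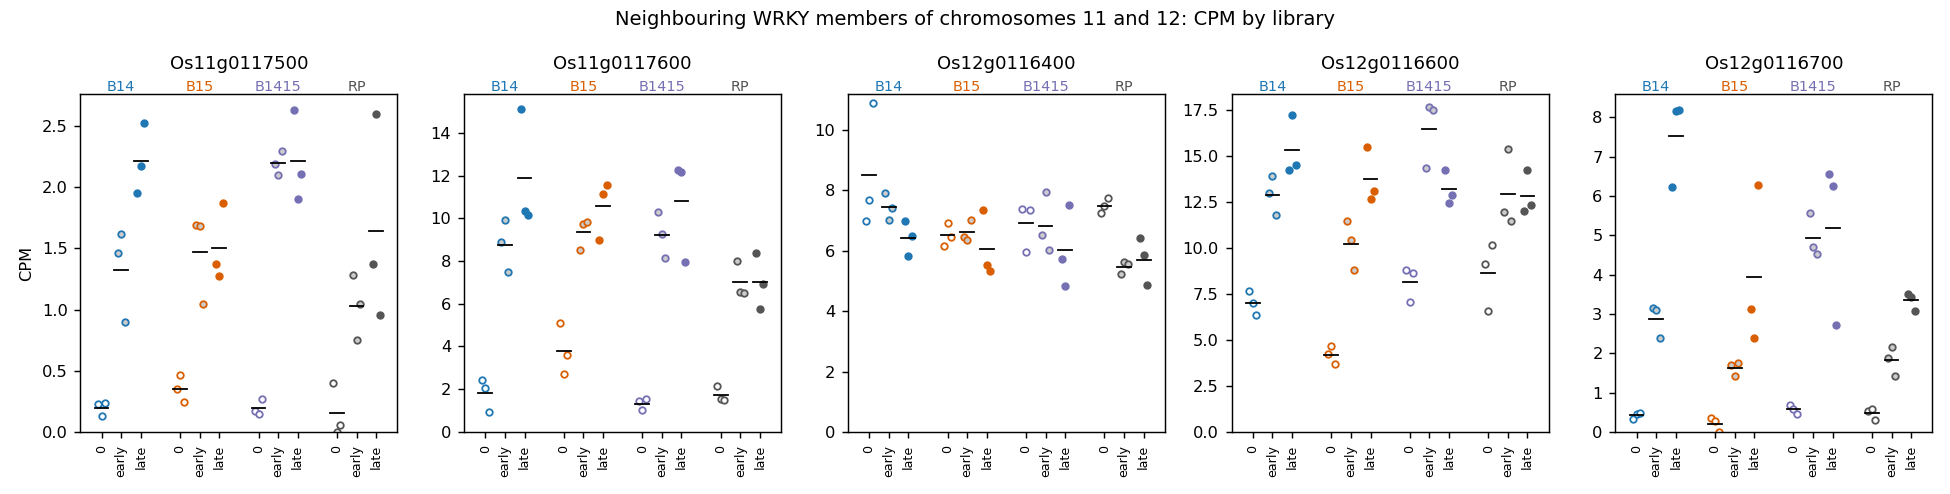
CPM (linear axis from 0) of the 5 members with neighbouring identifiers on chromosomes 11 and 12, by library, in B14, B15, B1415 and RP at stages 0, early and late, with bars at the group means of 3 libraries. Os11g0117500, Os11g0117600 and Os12g0116700 are low at 0 and higher at both feeding stages in every line, and Os12g0116400 stays between 4.82 and 10.9 CPM in all 36 libraries.

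Some members moved between the early and late stage. Late/early comparisons called 10 members higher and 0 lower of 44 in B14, and 6 higher and 2 lower of 43 in B15. B1415 had 1 higher of 43 and RP had 4 higher of 43. Among all genes, 2145 were higher and 2413 lower of 24520 in B14 (18.6% in either direction), and 1163 and 1362 of 24467 in B15 (10.3%). The numbers were 151 and 89 of 24649 in B1415 (0.974%), and 673 and 243 of 23987 in RP (3.82%). Among members lower at an unadjusted p under 0.05, B14 had 2, B1415 had 2 and RP had 0, and DESeq2 called 0 lower in these 3 lines. Os02g0770500 was the member called in all 4 lines. It was tested in 11 of the 21 comparisons and passed the filter on low counts through its late libraries, so its calls and ratios are a description. At the late stage it had 1.65, 2.35 and 2.77 CPM in B14, 1.31, 1.70 and 0.850 CPM in B15, 1.49, 0.635 and 2.41 CPM in B1415 and 2.08, 1.95 and 1.40 CPM in RP. Summed over 3 libraries this was 108 counts in B14_late against 7 in B14_0, 56 in B15_late against 3 in B15_0, 77 in B1415_late against 5 in B1415_0 and 75 in RP_late against 11 in RP_0, and the early/0 comparisons had too few counts to be tested. The ratio of late to 0, with an exact 95% interval that covers counting error only, was 15.1 (7.08 to 38.4) in B14, 15.9 (5.16 to 79.2) in B15, 13.7 (5.60 to 43.2) in B1415 and 7.82 (4.13 to 16.3) in RP. The edgeR late/early log2 fold change was 2.99 in B14, 2.45 in B15, 2.31 in B1415 and 1.78 in RP, with adjusted p values of 0.000238, 0.00299, 0.0468 and 0.00155 in that order. The call in B1415 was lost without any of the 3 B1415_early libraries or B1415_late replicate 1, and with DESeq2.

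Os03g0335200, the ninth member called higher in all 4 late/0 comparisons, had late/0 log2 fold changes of 1.11 to 2.28 and early/0 values of -0.24 to 0.56, none of which was called. It had 2.98, 2.32 and 3.53 CPM in RP_late against 0.335, 0.768 and 0.720 CPM in RP_0, and 3.83, 3.47 and 3.31 CPM in B14_late against 1.46, 1.56 and 2.04 CPM in B14_0, with no overlap in either line. Its late/0 call was lost in B14 without B14_late replicate 2 (adjusted p = 0.0501) and in B15 without B15_0 replicate 1 (log2 0.97). Os05g0478700, chosen after its values were seen, had 4.13, 2.58 and 3.67 CPM in B14_late, against 1.13, 1.02 and 1.10 CPM in RP_late, and 0 to 0.626 CPM over the 12 uninfested libraries. It was called higher in the late/0 comparisons of B14, B15 and RP, where it passed the filter through the late libraries, and failed the filter in that of B1415. The members with late/early calls in B14 were WRKY53, WRKY70, WRKY72, WRKY62, WRKY10, Os08g0499300, Os12g0116700, Os02g0770500, Os03g0335200 and Os05g0478700, and those in RP were WRKY10, Os02g0770500, Os03g0335200 and Os05g0478700. In B15 the higher ones were WRKY72, Os08g0499300, Os12g0116700, Os02g0770500, Os03g0335200 and Os05g0478700, and the lower ones were Os02g0698800 (log2 -1.06) and Os04g0471700 (log2 -1.19). Calls lost without 1 library were those of WRKY70 in B14 (B14_early replicate 3 or B14_late replicate 3), Os05g0478700 in RP (RP_early replicate 1 or 2) and, in B15, WRKY72 (B15_late replicate 1 or 2), Os04g0471700 (B15_late replicate 1) and Os02g0698800 (B15_early replicate 2 or 3 or B15_late replicate 3). The B15 value of Os12g0116700 was 1.30, and 0.77 and not called without B15_late replicate 3. No member was called higher in an early/0 comparison and lower in the late/early comparison of the same line.

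Further members were called higher at the late stage in 1 to 3 lines, 3 in 3 lines, 4 in 2 lines and 4 in 1 line. Those in 2 lines were WRKY53, WRKY70, Os08g0499300 and Os12g0116600, and those in 1 line were Os01g0821600 in B14 (log2 1.03) and Os05g0183100 (log2 1.04), Os06g0649000 (log2 1.48) and Os08g0386200 (log2 1.05) in RP. Os08g0499300 had log2 fold changes of 1.42 in B14 and 1.51 in B15, and of 0.81 in B1415 and 0.84 in RP, below the fold threshold. With RP_0 as the baseline its calls were lost (log2 0.89 in B14 and 0.54 in B15). Among the calls in 1 line, that of Os01g0821600 was lost without B14_0 replicate 3 (log2 0.94) or B14_late replicate 1, that of Os05g0183100 without RP_0 replicate 3 or RP_late replicate 1, and that of Os08g0386200 without RP_0 replicate 3. Os01g0750100, chosen for its 3 calls, had 261 ± 36.6 CPM in B14_late against 102 ± 39.2 CPM in B14_0, 166 ± 45.7 CPM in B1415_late against 74.5 ± 14.8 CPM in B1415_0, and 228 ± 26.4 CPM in RP_late against 79.1 ± 1.97 CPM in RP_0 (SD, n = 3 each). In B15 it had 191 ± 52.6 CPM late against 147 ± 20.1 CPM at 0 (1.29-fold, adjusted p = 0.0862). The overlap came from B15_late replicate 3 (132.5 CPM), and without it the value was 1.49-fold (adjusted p = 0.000888), below the fold threshold. In B14_0 replicate 3 stood at 147.5 CPM and the others at 78.5 and 80.8 CPM, and without it the late/0 log2 value in B14 was 1.72, against 1.39 with it. The B1415 call was lost without B1415_late replicate 3 (0.92 against 1.17 with it, log2).

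Lower levels after feeding were rare. Os04g0471700 fell in B14_late, with 2.03, 1.35 and 1.504 CPM against 3.77, 3.05 and 3.21 CPM in B14_0 (0.4997-fold, adjusted p = 0.0198), and in B15_late, with 1.25, 2.04 and 2.49 CPM against 4.66, 4.80 and 7.18 CPM in B15_0 (0.348-fold, adjusted p = 0.000575). In B1415 and RP its log2 fold changes were -0.62 and -0.40 and were not called. The B14 value lay at the threshold, and its call was lost without B14_0 replicate 1, B14_late replicate 2 or B14_late replicate 3. With RP_0 as the baseline its log2 value was -0.74 for B14_late and -0.45 for B15_late, neither called. The other 3 members called lower were each called in 1 line, Os02g0652100 in B14 (log2 -1.12) and Os01g0656400 (log2 -1.05) and Os02g0698800 (log2 -1.004) in B15. With RP_0 as the baseline none of the 3 was called (log2 -0.78 for Os02g0652100, -0.28 for Os02g0698800 and 0.14 for Os01g0656400). The 2 B15 calls were lost without B15_late replicate 3 (log2 -0.9995 for Os01g0656400 and -0.78 for Os02g0698800), as was that of Os01g0656400 without B15_0 replicate 3 or B15_late replicate 1 and that of Os02g0698800 without B15_0 replicate 1.

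A nearly equal number of members were not called. In none of the 21 comparisons were 22 members called, 18 of them tested in all 21. The share of all genes called in none was not counted. The 18 members tested in all 8 feeding comparisons without a call had log2 fold changes of -0.67 to 0.98 there, and 8 of them stayed within 0.5 of 0 in all 8. Os05g0137500 had log2 fold changes of -0.16 to 0.21 and Os03g0758000 of -0.33 to 0.20, both chosen for their narrow range. Os11g0685700 failed the filter in every comparison, with 2 counts in 1 RP_0 library and 0 in the other 35, under the floor of 3 counts, so its expression was not detectable at this depth. Os02g0462800, with 0 to 14 counts per library, was tested in 1 comparison, and Os01g0584900, with 3 to 20 counts, in 9.

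Few members met both criteria between a NIL and RP. At an adjusted p under 0.05 without the fold threshold, 26 of 39 members passed in B15_0/RP_0 and 18 of 41 in B15_early/RP_early. The count was 11 of 41 in B1415_early/RP_early, 8 of 41 in B14_early/RP_early and 7 of 44 in B14_late/RP_late. It was 0 in B14_0/RP_0, B1415_0/RP_0, B15_late/RP_late and B1415_late/RP_late, and the share of all genes at this criterion is not given here. Before infestation, B15_0/RP_0 called 6 members higher and 1 lower of 39 (17.9%), where 24.3% of all genes were called. The share of members in either direction was thus below that of all genes. By direction, 15.4% of the members were higher and 2.56% lower, where 3018 of 23887 genes were higher and 2798 lower. The median log2 fold change of the members tested was 0.53, against 0.01 over all genes. All 6 leaf and sheath loci were also higher in B15_0 than in RP_0, by 0.34 to 1.58 on the log2 scale (adjusted p at most 0.000406, 1 locus called). Their part in the members' values was not tested. The members higher in B15_0 were WRKY10 (2.84 ± 0.444 CPM against 1.23 ± 0.0902 CPM in RP_0, SD, n = 3 each), WRKY76, Os11g0117600, Os08g0386200, Os01g0656400 and Os04g0471700, with log2 fold changes of 1.04 to 1.19. The member lower in B15_0 was Os12g0116600 (4.22, 4.67 and 3.67 CPM against 9.12, 6.59 and 10.1 CPM in RP_0, log2 -1.05 ± 0.19, SE, adjusted p = 5.93e-05). These values sat close to the 2-fold threshold, and the count ran from 4 without B15_0 replicate 3 to 10 without B15_0 replicate 2. Of the 7 calls, only that of WRKY10 held with each library left out in turn, and that of WRKY76 was lost without B15_0 replicate 1 or RP_0 replicate 2, the lower value being 0.95 on the log2 scale. WRKY45 in B15_0 (38.3, 30.6 and 37.0 CPM against 21.6, 19.6 and 20.0 CPM in RP_0) had an adjusted p of 2.16e-06 at 1.71-fold, under the fold threshold.

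B14_0/RP_0 and B1415_0/RP_0 called 0 of 39 members each with edgeR and with DESeq2, where 0.0933% and 2.43% of all genes were called, and 9 and 5 members had an unadjusted p under 0.05. With B14_0 replicate 3 left out, the B14_0 count was 1. At the early stage B14_early/RP_early called 0 of 41 members with both tools (13 at an unadjusted p under 0.05, all genes 4.82%), B15_early/RP_early called Os08g0499300 lower (all genes 13.7%), and B1415_early/RP_early called Os12g0116700 and Os11g0117500 higher (all genes 4.36%). The Os11g0117500 call was lost without RP_early replicate 2. Os08g0499300 had 5.92, 5.56 and 8.27 CPM in B15_early against 17.6, 16.5 and 14.8 CPM in RP_early, log2 -1.33 ± 0.15 (SE, adjusted p = 8.32e-07). Os08g0499300 was already lower before infestation, with 5.63, 5.73 and 6.61 CPM in B15_0 against 12.8, 11.01 and 11.8 CPM in RP_0. That log2 difference of -0.998 lay just short of the fold threshold. Os12g0116700 had 5.56, 4.70 and 4.53 CPM in B1415_early against 1.89, 2.15 and 1.43 CPM in RP_early (2.75-fold, adjusted p = 7.34e-05), with no overlap.

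At the late stage B14_late/RP_late called 2 of 44 members higher (all genes 3.98%), Os05g0478700 (4.13, 2.58 and 3.67 CPM against 1.13, 1.02 and 1.10 CPM in RP_late, 3.17-fold, adjusted p = 0.0043) and Os12g0116700 (6.24, 8.16 and 8.18 CPM against 3.51, 3.43 and 3.09 CPM in RP_late, 2.28-fold, adjusted p = 0.00319). Os12g0116700 was the member called in one direction in 2 of the 9 NIL/RP comparisons, and every other called member was called in 1. B15_late/RP_late and B1415_late/RP_late called 0 of 44 members each with both tools, where 0.525% and 0.0330% of all genes were called, and 4 and 6 members had an unadjusted p under 0.05. Without B1415_late replicate 3, 2 members were called lower in B1415_late/RP_late, and without B15_late replicate 3 the B15 count was still 0.

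**Figure D4:**
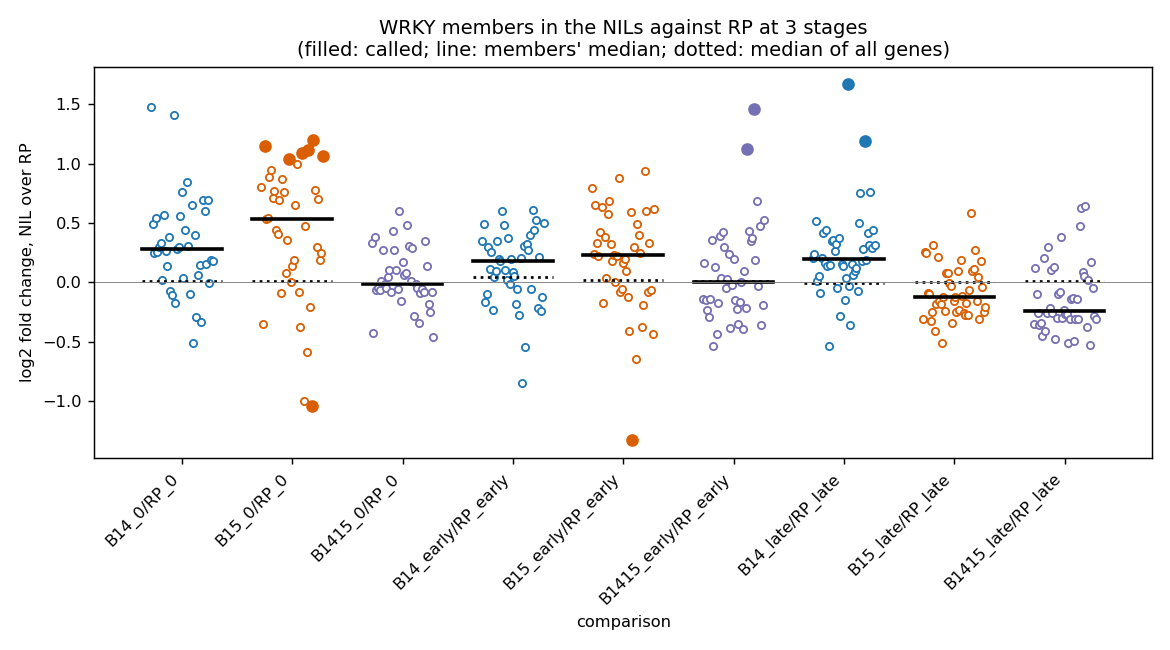
Log2 fold change of each WRKY member tested (points, filled where called) in B14, B15 and B1415 over RP at stages 0, early and late, with solid lines at the members' median and dotted lines at the median of all genes. Filled points are most frequent in B15_0/RP_0 (6 above and 1 below 0), where 17.9% of the members tested and 24.3% of all genes were called. In B15_late/RP_late, where no point is filled, the members' median is -0.13.

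The change after feeding in a NIL was set against that in RP with an interaction term for line by stage, called at an adjusted p under 0.05. In B15 at the late stage 22 of 44 members tested (50%) passed, and 46.4% of all genes tested passed, so the members' share was close to that of all genes. For 20 of the 22 the change was smaller or more negative in B15 than in RP, and for Os08g0499300 and Os12g0116600 it was larger. The genes passing were not split by direction over all genes, so this split is a description. The median log2 interaction was -0.60 over the members tested and -0.06 over all genes tested. Among the 20, the median late/0 log2 fold change was -0.06 in B15 (-1.52 to 1.36) and 0.86 in RP (-0.40 to 2.69). Their median log2 difference was 0.77 in B15_0/RP_0 (0.14 to 1.19) and -0.18 in B15_late/RP_late (-0.41 to 0.32). These comparisons share the B15_0, RP_0, B15_late and RP_late libraries with the interaction that chose the 20, so the 4 medians of the 20 are a description. WRKY76, called higher after feeding in both lines, had an interaction of -1.34 ± 0.19 on the log2 scale (SE, adjusted p = 4.45e-05). WRKY45 had -0.80 ± 0.14 (adjusted p = 0.000192) and Os12g0116600 1.09 ± 0.24 (adjusted p = 0.00128). The other 4 members called higher in all 8 feeding comparisons did not pass, WRKY62 (-0.60, adjusted p = 0.0539), Os11g0117500 (-1.35, adjusted p = 0.248), Os11g0117600 (-0.60, adjusted p = 0.143) and Os12g0116700 (1.35, adjusted p = 0.17). The count was 20 without B15_late replicate 3 and 16 without B15_0 replicate 3 or B15_late replicate 1.

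**Figure D5:**
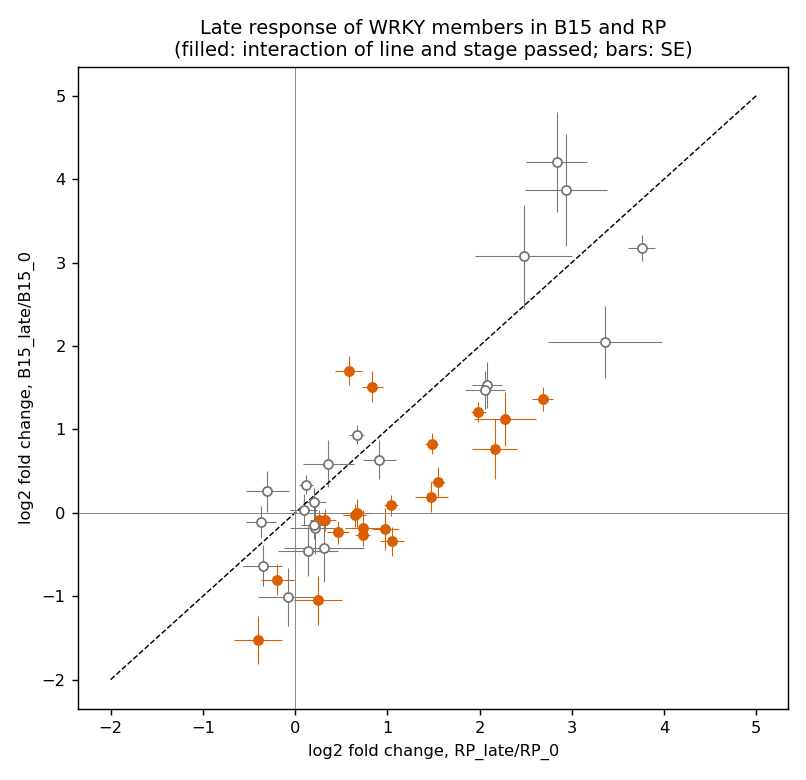
Late/0 log2 fold change of each WRKY member in B15 (y axis) against RP (x axis), with bars of 1 SE, the line of equal change dashed, and filled points where the interaction of line and stage passed. Of the 22 filled points, 20 lie below the dashed line and 2 above it, a split that was not counted over all genes.

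Other interactions were few. B15 at the early stage had 3 of 41 members (all genes 4.50%), WRKY53 (-0.41 ± 0.11, adjusted p = 0.0305), Os01g0826400 (-0.92 ± 0.24, adjusted p = 0.0332) and Os05g0183100 (-0.49 ± 0.13, adjusted p = 0.0372), all with a smaller or more negative change in B15. The plainest of them was Os01g0826400, which had 7.69, 5.81 and 8.79 CPM in B15_early against 11.4, 8.87 and 12.7 CPM in B15_0, and 9.03, 7.73 and 7.85 CPM in RP_early against 6.71, 5.50 and 7.68 CPM in RP_0. This count was 0 without any 1 of 5 libraries (B15_0 replicates 1 and 3, RP_0 replicate 2, RP_early replicates 1 and 3), 1 without B15_early replicate 1, B15_early replicate 2 or RP_0 replicate 3, 5 without B15_early replicate 3, 6 without RP_early replicate 2 and 9 without B15_0 replicate 2. B1415 at the early stage had 1 of 42 (all genes 0.646%), WRKY76, whose early/0 log2 fold change was 2.99 in B1415 and 2.01 in RP (interaction 0.97 ± 0.17, adjusted p = 0.00546), and it passed with each of the 12 libraries left out in turn but not in 1 fit of 36 libraries (adjusted p = 0.141). B14 at the early stage, B14 at the late stage and B1415 at the late stage had 0 members at the threshold with edgeR (all genes 0.0121%, 0.238% and 0.0279%). At an unadjusted p under 0.05 they had 2, 7 and 6 members, and DESeq2 called 1, 1 and 0. Without B14_0 replicate 3 the B14 counts were 4 at the early and 1 at the late stage, and without B1415_late replicate 3 the B1415 late count was 7, all with a smaller change in the NIL.

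Related genes with a name in the sources used here were few. NH1 (Os01g0194300), the rice homologue of the salicylic acid co-activator NPR1, had 60.4, 52.3 and 55.8 CPM in B14_late against 23.5, 24.6 and 27.2 CPM in B14_0, and 59.3, 46.7 and 51.6 CPM in RP_late against 27.1, 24.7 and 23.1 CPM in RP_0. Its late/0 log2 fold change was 1.21 in B14, 1.11 in B15 and 1.10 in RP (called) and 0.98 in B1415 (adjusted p = 0.000841, below the fold threshold). PR1b (Os01g0382000), a pathogenesis-related protein gene, was tested in RP alone of the feeding comparisons, with a late/0 log2 fold change of 0.79 (adjusted p = 0.11), and it was called higher in RP_late/RP_early (1.20, adjusted p = 0.0249). DPF (Os01g0196300), a regulator of diterpenoid phytoalexin genes, was below the filter in all 8. These 2 are members of a list of 13 loci reported downstream of rice WRKY proteins, the rest of which carry no name in the sources used here. Of that list 2 of 11 tested were called higher at the late stage in B14 (all genes 12.6%) and 6 of 10 in B15 (all genes 13.4%). The late count was 5 of 11 in B1415 (all genes 6.73%) and 8 of 12 in RP (all genes 9.70%). None was called lower at the late stage in any line. In the early/0 comparisons 0 of 11 were called higher in B14 (all genes 0.875%) and 6 of 10 in B15 (all genes 1.95%). The early count was 1 of 9 in B1415 (all genes 3.37%) and 3 of 11 in RP (all genes 3.94%). In B1415 1 was called lower (all genes 0.973%). Of 4 loci listed upstream, NH1 among them, NH1 alone was called in a feeding comparison. Of 4 further loci annotated as WRKY genes or WRKY-like in the study's supplement, which were listed there because they changed in these samples, WRKY107 (Os01g0185900) and Os01g0289732 rose in B14_late/B14_0 (log2 1.51 and 2.46) and RP_late/RP_0 (log2 1.11 and 1.38). WRKY102 (Os01g0182700) fell in B15_late/B15_0 (log2 -1.19), Os01g0201250 fell in RP_late/RP_0 (log2 -1.17), and none of the 4 was called in an early/0 comparison.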

How the data were processed

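RNA of leaf sheaths from 36 samples was sequenced. According to the methods, the authors aligned the reads to IRGSP-1.0 with HISAT2 (version 2.0.4 in the submitters' processing notes) and counted them per gene with HTseq, and they deposited raw counts, not normalized, in 1 column per library. The annotation release and strand setting are not given in the sources used here. The methods and the sample labels name different library kits (poly-A selection against rRNA depletion) and sequencers, and in 1 list of times the labels disagree with the 6 h of the methods.

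Counts were fitted with edgeR 4.0.16, which builds on limma 3.58.1, under R 4.3.3. For each of 21 comparisons (early/0, late/0 and late/early in each line and each NIL against RP at each stage) the 6 libraries of the 2 groups were filtered by filterByExpr (minimum count 10), scaled by TMM and tested by quasi-likelihood over all genes, with Benjamini-Hochberg adjustment. Calls needed an adjusted p under 0.05 and an absolute log2 fold change above 1. The 6 interactions used 12 libraries each and an adjusted p under 0.05. Total counts of 10601967 to 18692187 per library limit the precision of low genes.

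On simulated data with known changes the scripts were tested first. The members, lists and tests were chosen with earlier results of these data known. Named members were the 6 that the family rule names, those called higher in 4 of 4 late/0 comparisons (8 in detail), lower in 2 or more, higher early and lower late/early, called in 2 or more NIL/RP comparisons, or with an interaction at the early stage or at the late stage of B14 or B1415. WRKY10, Os12g0116400, Os12g0116600, Os05g0478700, Os01g0750100, Os08g0499300 and members named for a single call or a narrow range were added after their values were seen.

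Alternatives were DESeq2's size factors, DESeq2 1.42.0, no filter, unadjusted p, the replicate number as a block, 1 fit of 36 libraries, RP_0 as the baseline of every line, and each library left out. Other listed loci reported upstream or downstream of WRKY proteins are given as counts, since the sources used here do not pair them with names. Member sequences were not used here. The authors' own fold changes and p-values were not used.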

Additional observations from a re-analysis of the deposited data

Results flagged for a closer look

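The difference between a NIL and RP in the response to feeding, tested as the interaction of line and stage with edgeR (adjusted p under 0.05), passed for 22 members in B15 at the late stage, 3 in B15 at the early stage and 1 in B1415 at the early stage. At the late stage of B15 the log2 interaction is listed for members named by rule and for those with a positive value. It was -1.34 for WRKY76, -0.80 for WRKY45, -0.67 for WRKY53, -1.19 for Os01g0826400, -0.97 for Os05g0183100, -1.17 for Os03g0335200 and -1.14 for Os04g0471700, where a negative value is a smaller or more negative change in B15. It was 0.65 for Os08g0499300 and 1.09 for Os12g0116600. The lowest values among the members that passed were outside this list, -1.42 for WRKY10 and -1.42 for Os08g0386200. The share of all genes passing this interaction was 46.4%, so the 50% of members is not particular to them. At the early stage of B15 the values were -0.41 for WRKY53, -0.92 for Os01g0826400 and -0.49 for Os05g0183100, and at the early stage of B1415 the value was 0.97 for WRKY76.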

How the results depend on the processing

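Of the 152 calls of a member in a comparison or interaction, 148 were kept with DESeq2's size factors in edgeR, 146 with DESeq2, 148 without the filter, 141 in 1 fit of 36 libraries, 140 with the replicate number as a block and 152 at an unadjusted p. Omitting 1 library lost a call in 155 of 1068 cases and turned none. With RP_0 as the baseline of the feeding comparisons in the NILs, 54 calls were kept, 12 were lost and 1 changed sign. The last was Os01g0656400 in B15_late/B15_0, with a log2 fold change of 0.14. Counts that moved by over 1.5 times were as follows, and the cause was not tested. With RP_0 as the baseline, B14_early/B14_0 had 10 members and B15_early/B15_0 had 11. Same-numbered libraries did not deviate together (every correlation above 0.1 in 1 of 21 comparisons, -0.637 to 0.414), so groups were treated as unpaired. With the replicate block, B14_early/B14_0 had 2, and no other count moved by that much. DESeq2 gave 0 in B1415_late/B1415_early, 1 in the B14 early interaction and 1 in the B14 late interaction. The fit of 36 libraries gave 2 in B14_0/RP_0, 1 in B1415_early/RP_early, 0 in the early interactions of B15 and B1415 and 1 in the B14 late interaction. Without the filter the early interactions had 5 members in B15 and 2 in B1415. At an unadjusted p, B14_0/RP_0 had 2, the early interactions had 2 in B14, 13 in B15 and 9 in B1415, and the late interactions 7 in B14 and 6 in B1415. Leaving out 1 library at a time, counts ran from 0 to 8 in B14_early/B14_0, 0 to 1 in B1415_late/B1415_early, 0 to 1 in B14_0/RP_0, 4 to 10 in B15_0/RP_0, 1 to 2 in B15_early/RP_early, 1 to 2 in B1415_early/RP_early and 0 to 2 in B1415_late/RP_late. Early interactions ran from 0 to 4 in B14 and 0 to 9 in B15, and late interactions from 0 to 1 in B14 and 0 to 7 in B1415. Where a group had 2 libraries left, its spread was shared with the other group of the fit.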

Other observations

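The 46 members summed to 1315 ± 96.7 CPM in B14_late, 995 ± 108 CPM in B15_late, 932 ± 160 CPM in B1415_late and 1121 ± 68.9 CPM in RP_late (SD, n = 3 each). Without infestation the sum was 646 ± 73.2 CPM in B14_0, 720.0 ± 53.3 CPM in B15_0, 541 ± 41.3 CPM in B1415_0 and 536 ± 15.0 CPM in RP_0. The highest of the 12 group means was that of B14_late for 23 members, of B15_0 for 8, of B14_0 for 6, of RP_late for 3, of B15_early and B15_late for 2 each, and of B1415_early and RP_0 for 1 each. The same count over all genes was not made, so these numbers say nothing particular to the members. For each of the 6 members highest in B14_0, replicate 3 was the highest B14_0 library. The B14_0 mean of Os04g0545000, for example, was 3.90 CPM with that library and 2.84 CPM without it. Without replicate 3 the mean sum was 1057 CPM in B15_late and 840.7 CPM in B1415_late, and 603.8 CPM in B14_0 (n = 2 each). These are descriptions of group means, and the order of groups was not tested.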
